A study of Homo sapiens with 9 samples.

Results

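The MYC and MAX network comprised 10 listed genes out of 60664 in the count table. They were the activators MYC and MYCN, the shared partner MAX, the antagonists MXD1, MXI1, MXD3, MXD4 and MNT, the MAX-like protein MLX, and MGA, a large MAX partner of another kind. They were chosen by name as members of this family, with earlier results of these data known, and each symbol matched 1 gene identifier.

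MYC and MYCN are transcription factors that bind the E-box DNA element only as dimers with MAX and activate genes of growth, ribosome production and metabolism. The MXD proteins and MNT compete for MAX and for the same element, and recruit SIN3 and histone deacetylases to repress. MLX pairs with the glucose-responsive factors MondoA and ChREBP as well as with some MXD proteins, and MGA carries MAX into a Polycomb-type repressor complex.

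RNA was measured in HEK293T, a human embryonic kidney cell line that carries the SV40 large T antigen, by sequencing of total RNA after removal of ribosomal RNA. All cells were cultured at 37 °C, and the labels name no genetic change. NC cells were untreated, H1 cells were collected at the end of 1 h in a water bath at 43 °C, and H1R1, H1R6 and H1R18 cells were heated in the same way and then recovered at the culture temperature over 1, 6 and 18 h. H1R18 had a single library, and the other conditions had 2 each. The line is a single immortalised, transformed line, and the labels do not state that libraries of the same condition are separate cultures, so that p-values measure only the spread between these libraries, which may be technical.

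The 9 libraries held 3814195 to 6221613 counts. Levels are given as CPM, counts scaled to equal library totals. Of the kidney-line markers, VIM (201 to 291 CPM), NEFL (69.3 to 108), NEFM (44.3 to 65.4) and PAX2 (6.26 to 14.6) were detected in each library, while INA had at most 12 counts and LHX1 at most 2. Of 8 markers of blood, liver, endothelium, muscle and fibroblasts, 7 had at most 8 counts in a library, and the exception was the fibroblast gene COL1A1 at 44.0 to 64.2 CPM, which passed the test against NC at no time. VIM was higher than NC at H1R1 in each of 18 alternative analyses (log2 fold change 0.46, adjusted p = 6.02e-05). Its calls at H1R6 (0.26, adjusted p = 0.0423) and H1R18 (0.31, 0.0335) were lost without NC replicate 1 or H1 replicate 1, and the first also without NC replicate 2, H1 replicate 2 or either H1R6 library (adjusted p up to 0.187 and 0.074). PAX2 was called lower at H1R1 (-0.93, adjusted p = 0.0173) and H1R6 (-0.97, 0.0268), and these calls were lost without NC replicate 2 or either library of the time in question, the second also without NC replicate 1 (up to 0.121 and 0.253). The part of these genes in the results was not tested. The heat-inducible chaperone gene HSPA6 was at 204.5 and 263 CPM at H1, against 0.816 and 3.13 CPM in NC.

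All CPM were scaled by the trimmed mean of M-values (TMM), and errors of library values are shown by giving each library. Differences are log2 fold changes, later condition over earlier, from edgeR's quasi-likelihood test across 21139 genes, with p-values adjusted by the Benjamini-Hochberg method and a threshold of 0.05. All 10 network genes passed the filter on low counts. The 4 comparisons with NC share the same 2 NC libraries, so they are not independent of each other.

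The E-box with the core CACGTG is the element that dimers of the network bind, and the stretches around it in the promoters of network genes are shown for that reason. Promoters were taken as 250 bases before to 50 bases after each RefSeq start site (GRCh38.p14) and searched on both strands. The promoters of 9 of the 10 genes were examined, and that of MYC was not. CACGTG was found in the promoters of 3 genes, MXD4, MNT and MLX, where it lay 238, 193 and 50 bases before the start site. Over all 35116 RefSeq promoters 7.26% held it, and so did 8.77% of 27305 genes. The stretches lie at chr4:2262312-2262359 on the minus strand, chr17:2401218-2401283 on the minus strand and chr17:42567020-42567085 on the plus strand, and are written 5′ to 3′ along each gene with the E-box in capitals.
MXD4: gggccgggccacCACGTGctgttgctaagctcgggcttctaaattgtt
MNT: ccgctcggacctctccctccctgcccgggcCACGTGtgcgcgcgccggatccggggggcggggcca
MLX: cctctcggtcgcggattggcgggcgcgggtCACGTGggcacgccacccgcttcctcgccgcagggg
The heat shock element core GAANNTTC, a pair of facing GAA units, reads the same on both strands, as CACGTG does, and neither motif contains the other. It was found in 1 of 3 MGA promoters and in none of the other promoters searched, against 6.77% of all promoters. A match of letters says nothing about binding in these cells.

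At the end of heating, MYC transcripts fell and MXD1 transcripts rose, while the other 8 genes did not pass the test. The MXD1 call was lost in 2 of 18 alternative analyses. After 1 h of recovery MYC was still low, MXD1 was higher still, and MXD3, MXD4 and MNT were lower than in NC. The MXD4 and MNT calls were lost in 10 and 2 of 18 alternatives. By 6 h MYC and MXD1 did not pass the test against NC, and MGA was the only network gene called against NC. After 18 h MXD3 and MXI1 were higher than in NC in the single library, calls lost in 1 and 7 of 17 alternatives.

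**Figure D1:**
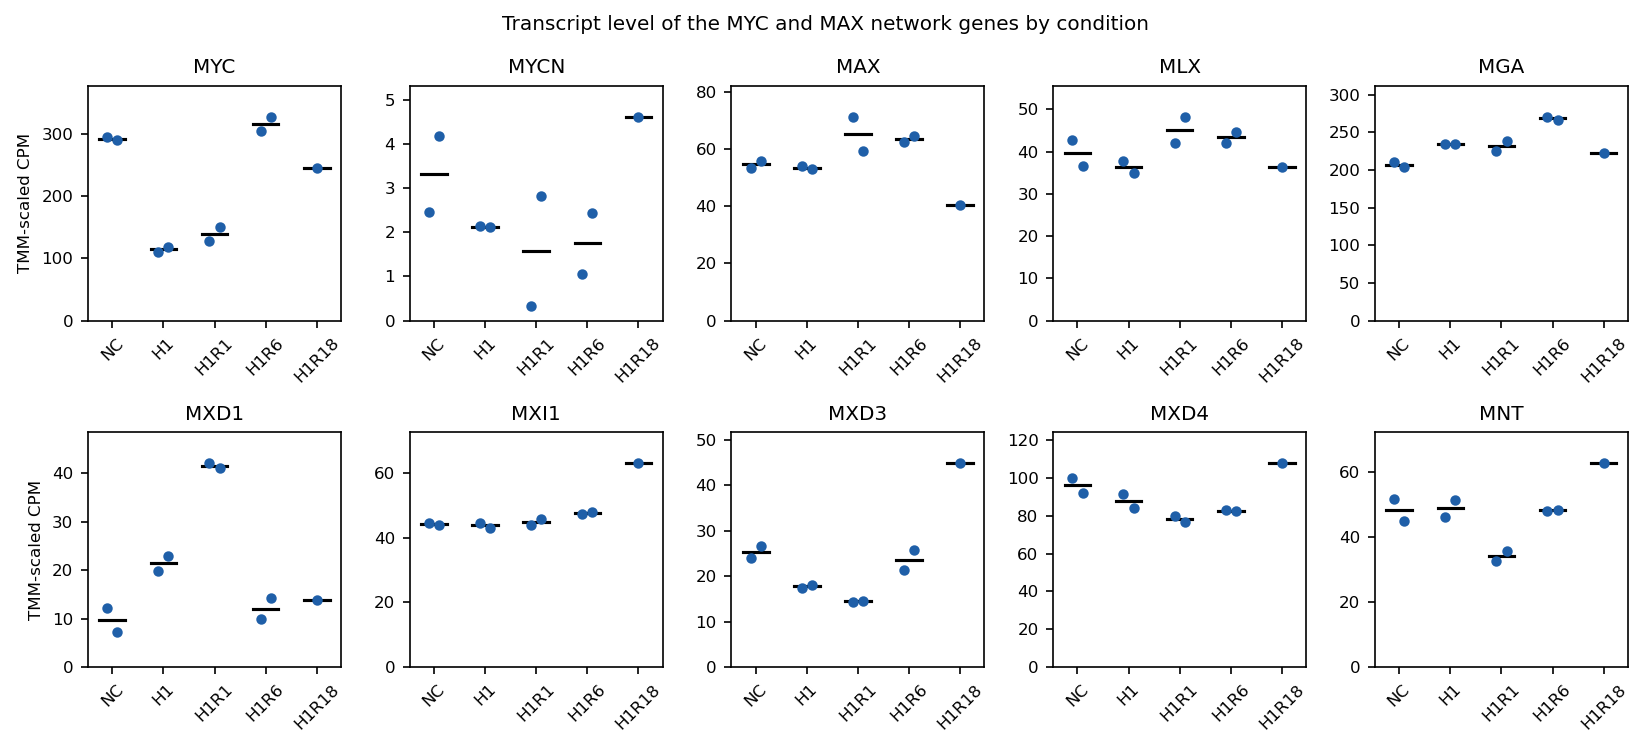
Transcript level (TMM-scaled CPM, vertical axes from 0, a separate scale for each gene) of the 10 network genes in each library (dots), with the condition mean as a line. The 4 MYC values of H1 and H1R1 lie between 111 and 151 CPM, below every other library, and the 2 MXD1 values of H1R1 lie at 41.0 and 42.1 CPM, above every other library.

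In counts, 1 of 10 network genes was called higher and 1 lower at H1, where the shares over all tested genes were 3.43% and 1.77%. At H1R1, 1 was higher and 4 were lower, against 10.7% and 9.53% of all genes. At H1R6, 1 was higher, against 3% of all genes, and at H1R18, 2 were higher, against 4.58%. None was called lower by edgeR or DESeq2 at these times, where 4.03% and 6.43% of all genes were, and 1 at H1R6 and 2 at H1R18 had an unadjusted p under 0.05. The median log2 fold change of the 10 genes was -0.08 for H1, -0.14 for H1R1, 0.11 for H1R6 and 0.27 for H1R18, beside -0.01 to -0.03 for all genes.

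MYC (ENSG00000136997, plus strand of chromosome 8 of GRCh38, 127735434 to 127742951) was at 295.5 and 290.7 CPM in NC, 111 and 118.5 CPM at H1, 128 and 151 CPM at H1R1, 305 and 329 CPM at H1R6, and 246 CPM at H1R18. The H1 and H1R1 libraries lay far below both NC libraries, the H1R6 libraries lay above both, and the H1R18 library lay below both. MYC fell at H1 to 0.392 of the NC level (log2 fold change -1.35, SE 0.09, adjusted p = 8.45e-13). At H1R1 it was at 0.473 of the NC level (log2 fold change -1.08, SE 0.09, adjusted p = 5.17e-11). Both calls held in each of 18 alternative analyses. In RNA from bulk cells, fewer cells that express a gene and less of its RNA per cell cannot be told apart.

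During the first hour of recovery MYC rose above its H1 level, by 0.27 in log2 units (SE 0.09, adjusted p = 0.0444). The call was lost in 9 of 18 alternatives, with library-size scaling among them (0.22, adjusted p = 0.107). It was also lost when H1 replicate 1 (0.23, adjusted p = 0.291) or H1 replicate 2 was left out (0.30, 0.134), and without H1R1 replicate 2 (0.15, 0.399), H1R6 replicate 1 (0.27, 0.0571) or H1R6 replicate 2 (0.27, 0.0581). Between H1R1 and H1R6 MYC rose by 1.19 in log2 units (SE 0.09, adjusted p = 6.48e-12), a 2.29-fold increase that held in each alternative. At H1R6 its log2 fold change against NC was 0.11 (SE 0.08, adjusted p = 0.503). It fell again between H1R6 and H1R18 (log2 fold change -0.37, SE 0.10, adjusted p = 0.0156), a call lost without H1R6 replicate 2 (-0.32, adjusted p = 0.115). Against NC the H1R18 value was -0.26 (SE 0.11, adjusted p = 0.12).

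MYC exons carried 623 to 1891 counts in a library. CASC11, which overlaps 4.23% of the exon bases of MYC on the opposite strand, had at most 2 counts. PVT1, the noncoding gene beside MYC, was at 77.9 and 72.0 CPM in NC, 70.2 and 71.2 CPM at H1, 76.4 and 71.7 CPM at H1R1, 87.6 and 87.1 CPM at H1R6 and 58.5 CPM at H1R18. It did not pass the test against NC at any time and was lower at H1R18 than at H1R6 (log2 fold change -0.58, SE 0.14, adjusted p = 0.00469).

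MYCN (ENSG00000134323, chromosome 2, 15940550 to 15947007, plus strand), the MYC relative best known from neuroblastoma, had 2 to 18 counts in a library. Its level was 2.45 and 4.18 CPM in NC, 2.14 and 2.12 CPM at H1, 0.334 and 2.81 CPM at H1R1, 1.06 and 2.43 CPM at H1R6, and 4.62 CPM at H1R18. The libraries of H1R1 overlapped those of NC, and no comparison passed the test (adjusted p 0.287 to 0.866 over the 7 comparisons). The SE of its log2 fold changes was 0.69 to 0.81, so that only large changes could pass. Without H1R1 replicate 2, which leaves the library with 2 counts as the only one of its condition, MYCN was called lower at H1R1 than in NC (log2 fold change -3.20, adjusted p = 0.0356). MYCNOS, its antisense neighbour, had at most 4 counts and was not tested.

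MAX (ENSG00000125952, chromosome 14, 65006174 to 65102695, minus strand), the partner with which MYC and MYCN bind DNA and for which the antagonists compete, was at 53.6 and 55.8 CPM in NC, 54.0 and 53.0 CPM at H1, 71.5 and 59.3 CPM at H1R1, 62.5 and 64.7 CPM at H1R6, and 40.5 CPM at H1R18. Both libraries of H1R1 and of H1R6 lay above NC and the H1R18 library lay below it. None of the 4 comparisons with NC passed the test, with log2 fold changes of 0.27 at H1R1 (SE 0.13, adjusted p = 0.144), 0.22 at H1R6 (SE 0.13, adjusted p = 0.364) and -0.43 at H1R18 (SE 0.17, adjusted p = 0.106). MAX was lower at H1R18 than at H1R6 (log2 fold change -0.65, SE 0.17, adjusted p = 0.00775), and this held in 17 of 17 alternatives. None of these could leave out the single H1R18 library. FNTB lies over 13.1% of MAX exon bases on the opposite strand and had at most 61 counts. CHURC1-FNTB, whose span overlaps that of FNTB, covers 9.96% of MAX exon bases and had 0 counts. Reads on exons of several genes were not counted, so the counts of FNTB may understate its level. ENSG00000259118, also on the opposite strand, covers 2.94% and had at most 38 counts. It was higher than in NC at H1 (log2 fold change 1.94, adjusted p = 0.0124) and H1R18 (1.93, 0.0277).

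MXD1 (ENSG00000059728, chromosome 2, 69897688 to 69942945, plus strand), an antagonist known as MAD1 that is induced when cells differentiate, moved in the direction opposite to MYC at H1 and between H1R1 and H1R6. Its level was 12.2 and 7.31 CPM in NC, 19.8 and 23.0 CPM at H1, 42.1 and 41.0 CPM at H1R1, 9.89 and 14.3 CPM at H1R6, and 13.9 CPM at H1R18. H1 and H1R1 libraries lay above every NC library, and those of H1R6 overlapped NC.

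MXD1 rose at H1 by 1.10 in log2 units (SE 0.24, adjusted p = 0.00433). The 28 and 60 counts of the NC libraries limit this value, and the call was lost without NC replicate 2 (0.81, adjusted p = 0.107) or H1 replicate 2 (1.00, adjusted p = 0.0723). At H1R1 it was 4.17-fold higher than in NC (log2 fold change 2.06, SE 0.23, adjusted p = 6.55e-08), and the call held in each alternative, with log2 fold changes of 1.77 to 2.51. The step between H1 and H1R1 was 0.96 (SE 0.20, adjusted p = 0.00175), which was lost without H1 replicate 1 (0.86, adjusted p = 0.0524). Between H1R1 and H1R6 MXD1 fell to 0.291 of its H1R1 level (log2 fold change -1.78, SE 0.22, adjusted p = 4.13e-07), in each alternative.

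The MXD1 gene model overlaps SNRNP27, a spliceosome gene on the same strand, over 3.73% of MXD1 exon bases. SNRNP27 had at most 155 counts, and its log2 fold change was 0.31 at H1 (adjusted p = 0.498) and 0.65 at H1R1 (adjusted p = 0.0274). Reads that fall on exons of both genes were not counted for either, and whether transcripts that continue from SNRNP27 add to MXD1 was not tested.

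**Figure D2:**
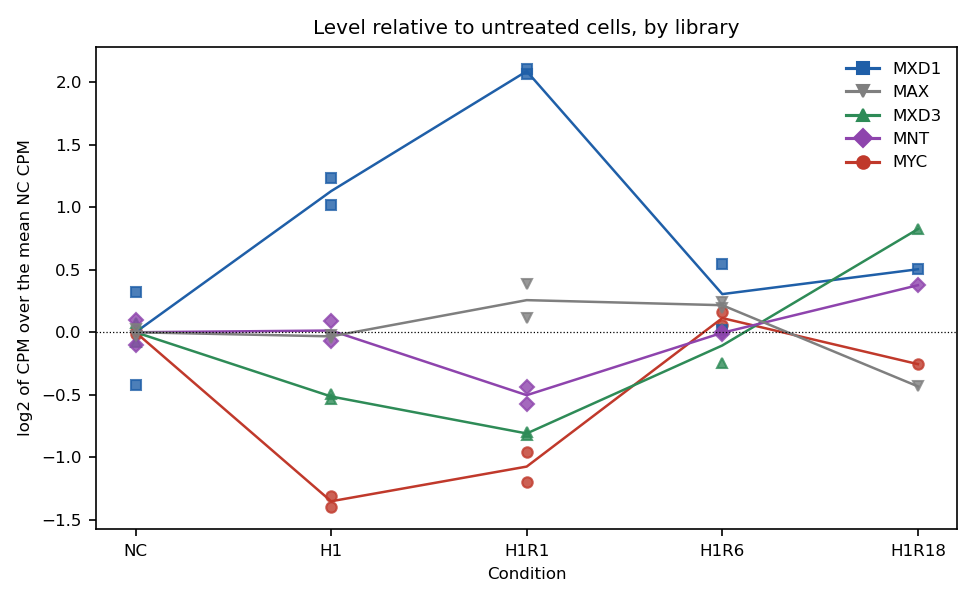
Level of MXD1, MAX, MXD3, MNT and MYC in each library (symbols) as the log2 of its CPM over the mean NC CPM of the gene (vertical axis), by condition, with lines through the condition means. At H1R1 both MXD1 libraries lie above 2, and the libraries of MYC, MXD3 and MNT lie below 0.

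None of the other antagonists was called higher than NC at H1 or H1R1. MXD3 (ENSG00000213347, chromosome 5, 177301461 to 177312757, minus strand), an MXD protein associated with the S phase of cycling cells, was at 24.1 and 26.6 CPM in NC, 17.5 and 18.0 CPM at H1, 14.4 and 14.5 CPM at H1R1, 21.4 and 25.7 CPM at H1R6, and 44.9 CPM at H1R18. Libraries of H1 and H1R1 lay below NC without overlap, H1R6 overlapped NC, and the H1R18 library was the highest.

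MXD3 fell at H1R1 (log2 fold change -0.81, SE 0.20, adjusted p = 0.00443), in each alternative, and its value at H1 was -0.51 (SE 0.20, adjusted p = 0.145). It rose between H1R1 and H1R6 by 0.70 (SE 0.20, adjusted p = 0.0142). That call was lost without H1R1 replicate 1 (0.69, adjusted p = 0.0924), H1R1 replicate 2 (0.71, 0.0566) or H1R6 replicate 2 (0.58, 0.146). At H1R18 it rose further, by 0.93 against H1R6 (SE 0.22, adjusted p = 0.00354), in each alternative, and by 0.83 against NC (SE 0.22, adjusted p = 0.0126). No alternative could leave out the single H1R18 library. The difference from NC was lost without NC replicate 1 (0.78, adjusted p = 0.061).

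MXD3 is crowded by its neighbours, since PRELID1 on the opposite strand covers 22.3% of its exon bases and RAB24 on the same strand 18.0%. Counting ignored strand, so reads of PRELID1 on MXD3 exons outside its own annotation would count as MXD3. At H1R18, where MXD3 was higher than in NC, PRELID1 was lower (log2 fold change -0.62, adjusted p = 0.00334), and RAB24 did not pass the test against NC at any time.

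MNT (ENSG00000070444, chromosome 17, 2384073 to 2401104, minus strand), the broadly expressed antagonist, was at 51.6 and 44.9 CPM in NC, 46.0 and 51.4 CPM at H1, 32.4 and 35.6 CPM at H1R1, 47.9 and 48.3 CPM at H1R6, and 62.6 CPM at H1R18. Only the 2 H1R1 libraries lay below the NC range. MNT fell at H1R1, with log2 fold changes of -0.51 against NC (SE 0.15, adjusted p = 0.0108) and -0.52 against H1 (SE 0.14, adjusted p = 0.0139), and rose at H1R6, with 0.50 against H1R1 (SE 0.14, adjusted p = 0.0135). The first of these was lost without NC replicate 1 (-0.40, adjusted p = 0.13) or H1R1 replicate 1 (-0.44, 0.121). The second was lost without H1 replicate 2 (-0.46, adjusted p = 0.148) or H1R1 replicate 1 (-0.45, 0.163). The third was lost without H1R1 replicate 1 (0.43, adjusted p = 0.139), H1R6 replicate 1 (0.53, 0.0592) or H1R6 replicate 2 (0.51, 0.062).

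MXD4 (ENSG00000123933, chromosome 4, 2247432 to 2262109, minus strand), the most abundant antagonist here per kilobase, was at 100.1 and 91.8 CPM in NC, 91.3 and 84.1 CPM at H1, 80.0 and 76.4 CPM at H1R1, 82.8 and 82.2 CPM at H1R6, and 108 CPM at H1R18. Libraries of H1, H1R1 and H1R6 lay below NC, and the H1R18 library above it. It fell at H1R1 (log2 fold change -0.30, SE 0.10, adjusted p = 0.0409), but 10 of 18 alternatives did not call it (adjusted p 0.0535 to 0.242), the leaving out of NC replicate 1 or of any H1, H1R1 or H1R6 library among them. It was higher at H1R18, by 0.38 against H1R6 (SE 0.12, adjusted p = 0.0359), and 6 of 17 alternatives lost this call. They were DESeq2, no filter on low counts, the replicate block, and the fits without H1 replicate 1 (0.38, adjusted p = 0.0509), H1R6 replicate 1 (0.39, 0.102) or H1R6 replicate 2 (0.38, 0.124).

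MXI1 (ENSG00000119950, chromosome 10, 110207605 to 110287365, plus strand), an antagonist also called MXD2, stayed within 43.1 to 48.0 CPM in the 8 libraries of NC, H1, H1R1 and H1R6 and was at 63.1 CPM at H1R18. Its log2 fold change at H1R18 against NC was 0.51 (SE 0.16, adjusted p = 0.0423). The call was lost in 7 of 17 alternatives, which were DESeq2, no filter, the replicate block, and the fits without NC replicate 1 (0.54, adjusted p = 0.0793), NC replicate 2 (0.52, 0.0837), H1 replicate 1 (0.51, 0.0583) or H1 replicate 2 (0.52, 0.0514). As H1R18 had a single library, its spread was assumed to be that of the other conditions.

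MLX (ENSG00000108788, chromosome 17, 42567072 to 42573239, plus strand), the MAX-like partner of MondoA and ChREBP, was at 42.8 and 36.5 CPM in NC, 37.8 and 35.0 CPM at H1, 42.1 and 48.3 CPM at H1R1, 42.0 and 44.7 CPM at H1R6, and 36.4 CPM at H1R18. Its libraries overlapped NC at H1, H1R1 and H1R6, and no comparison passed the test (adjusted p 0.2 to 0.857). PSMC3IP covers 18.2% of MLX exon bases on the opposite strand, had at most 156 counts, and was higher than in NC at H1 (log2 fold change 0.83, adjusted p = 0.0142).

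MGA (ENSG00000174197, chromosome 15, 41621134 to 41773081, plus strand), which pairs with MAX through its own helix-loop-helix domain and also holds a T-box domain, was at 210.2 and 203 CPM in NC, 234 and 235 CPM at H1, 226 and 239 CPM at H1R1, 271 and 267 CPM at H1R6, and 223 CPM at H1R18. Each library after heating lay above both NC libraries. The difference passed the test at H1R6 alone (log2 fold change 0.38, SE 0.08, adjusted p = 0.00162), in each alternative. It was 0.18 at H1 (SE 0.08, adjusted p = 0.203), 0.17 at H1R1 (SE 0.08, adjusted p = 0.139) and 0.11 at H1R18 (SE 0.10, adjusted p = 0.529).

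The step of MGA between H1R1 and H1R6 was 0.21 (SE 0.08, adjusted p = 0.0573) and passed in 10 of 18 alternatives, for example without NC replicate 1 (0.23, adjusted p = 0.0249) or NC replicate 2 (0.22, 0.0293). The value of MGA at H1R18 against H1R6 was -0.27 (SE 0.10, adjusted p = 0.0602) and passed in 4 of 17, among them the fits without NC replicate 1 (-0.27, adjusted p = 0.0432) and NC replicate 2 (-0.27, 0.0419).

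Between consecutive times, 2 network genes were called higher and 1 lower at H1R1 against H1, where 6.35% and 5.08% of all genes were called. Then 3 were called higher and 1 lower at H1R6 against H1R1 (6.43% and 8.93% of all genes), and 2 higher and 2 lower at H1R18 against H1R6 (6.28% and 7.65%). Scaling by library size alone changed the split of all calls but not the direction of any called network gene. With it, 42.3% of the calls at H1R1 against NC were higher, compared with 52.8% under TMM, 43.4% compared with 55.6% at H1R1 against H1, and 62.3% compared with 41.9% at H1R6 against H1R1.

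Levels of different genes were compared per kilobase of exon. MYC was first of the 10 in every condition, at 63.9 CPM per kb in NC, 25.04 at H1, 30.4 at H1R1, 69.2 at H1R6 and 53.6 at H1R18. MXD4 (13.97), MGA (10.6), MLX (9.33), MAX (8.75) and MXI1 (7.51 CPM per kb) followed in NC, then MNT (5.54), MXD3 (4.92), MXD1 (1.54) and MYCN (1.27). In NC the libraries of MLX and MAX, of MNT and MXD3, and of MXD1 and MYCN overlapped, so the order within these pairs was not resolved. Exon lengths included bases shared with other genes, where reads were not counted. In MXD3, PRELID1 covered 22.3% and RAB24 18.0% of exon bases. The largest overlap was 18.2% in MLX, 13.1% in MAX and 12.2% in MNT. Levels per kb of these genes may therefore be too low, and their places among genes of near level were not resolved. MXD1, ninth in NC, was seventh at H1R1 with 6.55 CPM per kb, above MNT (3.91) and MXD3 (2.80) in both libraries.

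Summed over MXD1, MXI1, MXD3, MXD4 and MNT, the antagonists were nearly level through heating and early recovery. The sum was 34.7 and 32.3 CPM per kb in the NC libraries, 32.6 and 32.6 in those of H1, 32.2 and 32.3 in those of H1R1, 31.3 and 32.9 in those of H1R6, and 44.5 in that of H1R18, where 4 of the 5 genes had their highest library. As a share of MYC plus the 5 antagonists, MYC made up 65.0% and 66.3% in the NC libraries, 42.6% and 44.3% in those of H1, 46.3% and 50.5% in those of H1R1, 68.1% and 68.6% in those of H1R6, and 54.7% in that of H1R18. The shares of H1 and H1R1 did not overlap those of NC, and the H1R18 share lay between. These are shares of transcripts with no test, and proteins were not measured here.

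The ratio of MYC to MXD1 per kb was 33.5 and 55.1 in the NC libraries, 7.78 and 7.15 in those of H1, 4.20 and 5.09 in those of H1R1, 42.8 and 31.95 in those of H1R6, and 24.6 in that of H1R18. MYC over MAX per kb was 7.52 and 7.11 in the NC libraries, 2.81 and 3.05 in those of H1, 2.44 and 3.47 in those of H1R1, 6.67 and 6.94 in those of H1R6, and 8.27 in that of H1R18. Both ratios were lowest in the libraries of H1 and H1R1.

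**Figure D3:**
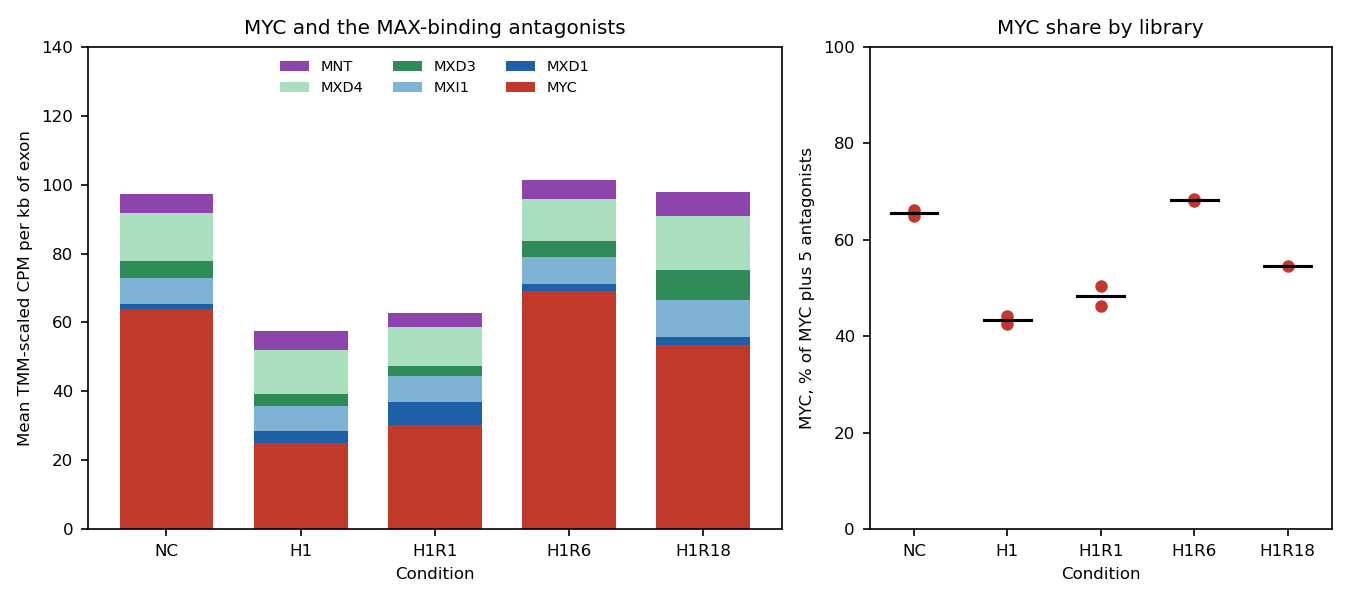
Left, mean level of MYC and of 5 antagonists (stacked bars, TMM-scaled CPM per kb of exon) by condition. Right, MYC as a percentage of MYC plus the 5 antagonists in each library (dots) with the condition mean (line), which is below 51% in the 4 libraries of H1 and H1R1 and at 65.0% or more in those of NC and H1R6.

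Genes with courses most like those of the network genes were ranked by Pearson's r of log2 CPM over the 9 libraries, as a description without a test. Among 11746 genes of average log2 CPM of at least 3, the genes most like MYC included N4BP1 (r = 0.98), LPIN3 (0.98), OARD1 (0.96) and LRRC40 (0.955). N4BP1 averaged 63.4 CPM in NC, 36.9 at H1, 38.4 at H1R1, 72.7 at H1R6 and 56.5 CPM at H1R18. Those most like MXD1 included MED15, TICRR, ABHD17A and RPP14 (r = 0.98 for each), and RPP14 averaged 29.6 CPM in NC, 41.7 at H1, 62.4 at H1R1, 30.5 at H1R6 and 30.3 CPM at H1R18. MXD3 was most like DCAF8 (0.98), KANTR (0.98), ANKZF1 (0.98), SCRN1 (0.97) and KLC1-AS1 (0.97). For MYCN, with its low counts, the highest among 11747 genes were PTPN18 (0.93), ARHGEF4 (0.92), CHRM3 (0.92), DDB2 (0.91) and DOC2A (0.90).

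Genes that act with the network were described from lists of textbook members, chosen with earlier results of these data known. Their counts beside the shares of all genes are therefore a description, not independent support. Among 26 genes known to be induced by MYC, 1 was higher at H1 (NOP16, a call lost without NC replicate 1 or either H1 library, with adjusted p up to 0.0954), while 16 were higher and 2 lower at H1R1, when MYC itself was at 0.473 of its NC level. The background at H1R1 was 10.7% of genes higher and 9.53% lower, and the median log2 fold change was 0.34 for the list and -0.01 for all genes. At H1R6, 7 were higher and 3 lower (CAD, NPM1 and SHMT2), and at H1R18, 1 was higher (GNL3) and 10 lower, with a list median of -0.26. Of all genes 3% were higher and 4.03% lower at H1R6, and 4.58% were higher and 6.43% lower at H1R18. Genes in these brackets are named because the counts are small, after their values were seen. Over the alternatives, 13 to 16 were higher and 1 to 2 lower at H1R1, 2 to 8 higher and 1 to 3 lower at H1R6, and 1 to 2 higher and 8 to 10 lower at H1R18. At H1R6 the counts were 2 higher and 1 lower without H1R6 replicate 2, and 4 higher and 1 lower without NC replicate 1, and 1 was also the lower count without either H1 library or H1R6 replicate 1.

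The targets raised at H1R1 included factors of ribosome assembly. MRTO4, which helps to build the large ribosomal subunit, was at 108 and 87.7 CPM at H1R1, against 53.8 and 51.1 CPM in NC (log2 fold change 0.91, SE 0.12, adjusted p = 1.63e-06), and RRP12, needed for subunit export, at 153 and 133 CPM at H1R1 against 89.1 and 77.8 CPM in NC (0.78, SE 0.10, adjusted p = 1.09e-06). LDHA, a glycolytic enzyme, was higher at H1R1 (0.39, SE 0.07, adjusted p = 0.000177) and lower at H1R18, at 250.2 CPM against 495.5 and 456 CPM in NC (-0.93, SE 0.09, adjusted p = 2.51e-08). ODC1, the first enzyme of polyamine synthesis, was also lower at H1R18, at 131 CPM against 223 and 247 CPM in NC (-0.84, SE 0.11, adjusted p = 1.17e-06). These 5 calls held in each alternative, though for those at H1R18 none could leave out its single library.

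The 2 induced targets that fell at H1R1, named after their values were seen, were TERT, the catalytic subunit of telomerase, and SHMT2, a mitochondrial enzyme of serine and one-carbon metabolism. TERT was at 13.7 and 17.4 CPM at H1R1, against 32.8 and 31.6 CPM in NC (log2 fold change -1.07, SE 0.20, adjusted p = 0.000169), in each alternative. SHMT2 was at 181 and 245 CPM at H1R1, against 279.8 and 304 CPM in NC (-0.46, SE 0.10, adjusted p = 0.000817). The SHMT2 call was lost without H1R1 replicate 1 (adjusted p = 0.0974).

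**Figure D4:**
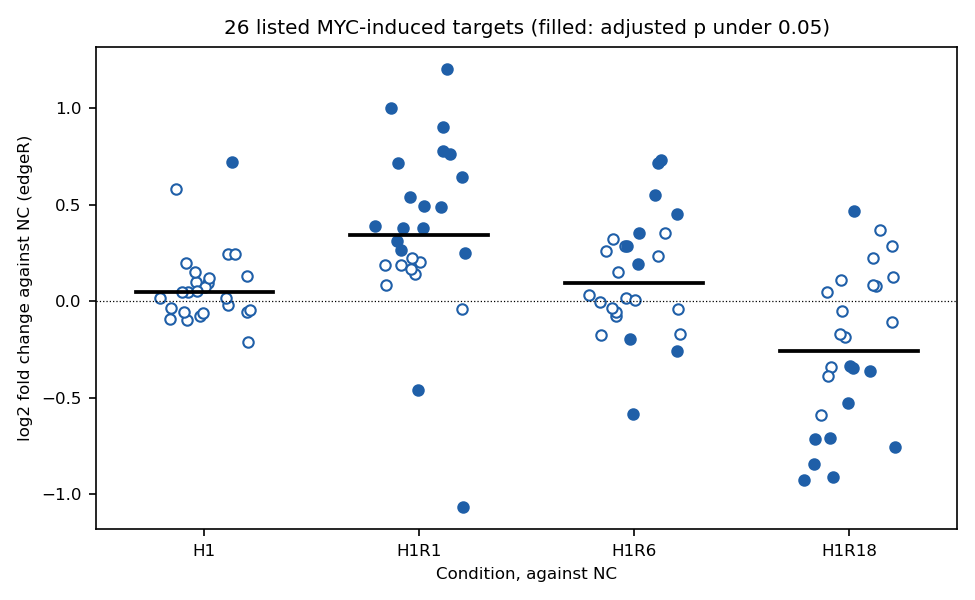
Log2 fold change against NC (vertical axis, edgeR) of the 26 listed MYC-induced targets (circles, filled where the adjusted p was under 0.05) at H1, H1R1, H1R6 and H1R18, with the list median as a line. The medians are 0.05, 0.34, 0.09 and -0.26.

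Of 6 genes known to be repressed by MYC, 1 was higher at H1 (CDKN1A), 3 at H1R1 (CDKN1A, CDKN2B and GADD45A) and 2 at H1R18 (GADD45A and NDRG1). The background of higher calls was 3.43%, 10.7% and 4.58% of genes, and the list medians were 0.24 at H1, 0.39 at H1R1 and 0.68 at H1R18. The H1R1 calls of CDKN1A and CDKN2B were lost in 10 and 13 of 18 alternatives, including the fits without any 1 of the NC, H1 or H1R1 libraries for CDKN2B, and without any 1 of the NC or H1 libraries or H1R1 replicate 1 for CDKN1A. NDRG1, a stress and differentiation gene, was at 85.5 CPM at H1R18, against 39.6 and 43.3 CPM in NC (log2 fold change 1.05, SE 0.17, adjusted p = 4.58e-05), in each alternative. None could leave out the single H1R18 library. CDKN1A, the p21 inhibitor of cyclin-dependent kinases, was at 39.2 and 39.7 CPM at H1, against 24.5 and 26.6 CPM in NC (0.63, SE 0.17, adjusted p = 0.0225), a call lost in 5 of 18 alternatives, without any 1 of the NC or H1 libraries and by DESeq2. GADD45A, a growth arrest gene, was higher at H1R1 (0.64, SE 0.19, adjusted p = 0.0158) and at H1R18 (0.75, SE 0.23, adjusted p = 0.0335), and both calls were lost without NC replicate 2 (adjusted p up to 0.153 and 0.135 over the alternatives), the first also without H1R1 replicate 2.

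For the MLX branch, TXNIP and ARRDC4, the arrestin-family genes that MondoA and MLX switch on when glucose metabolites accumulate, were both lower at H1R1 and at H1R18. Of all genes 9.53% were lower at H1R1 and 6.43% at H1R18. TXNIP was at 70.2 and 77.2 CPM in NC, 94.1 and 108 CPM at H1, 49.6 and 59.6 CPM at H1R1, 48.0 and 40.3 CPM at H1R6, and 31.8 CPM at H1R18. It was higher than in NC at H1 (log2 fold change 0.46, SE 0.12, adjusted p = 0.0197) and lower at H1R6 (-0.73, SE 0.13, adjusted p = 0.000312) and H1R18 (-1.21, SE 0.18, adjusted p = 2.35e-05). The step between H1 and H1R1 was -0.90 (SE 0.12, adjusted p = 7.61e-06). At H1R1 the difference from NC was -0.44 (SE 0.13, adjusted p = 0.0147), lost without NC replicate 2 or H1R1 replicate 1 (adjusted p up to 0.229). The H1 call of TXNIP was lost by DESeq2 and without NC replicate 1 or H1 replicate 2, with adjusted p up to 0.277.

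ARRDC4 was at 22.1 and 20.6 CPM at H1R1, against 34.9 and 44.9 CPM in NC (log2 fold change -0.89, SE 0.18, adjusted p = 0.000536), in each alternative. At H1R18 ARRDC4 was at 22.6 CPM (-0.81, SE 0.23, adjusted p = 0.0208), a call lost without NC replicate 2 (adjusted p = 0.144). Of the partners of MLX and the third MYC gene, MLXIPL, which encodes ChREBP, was lower at H1R1 (-0.60, SE 0.15, adjusted p = 0.00379), in each alternative. MLXIP, which encodes MondoA, was higher at H1R1 (0.26, SE 0.08, adjusted p = 0.0232) and lower at H1R18 (-0.45, SE 0.11, adjusted p = 0.00573). The MLXIP call at H1R1 was lost with library-size scaling and without NC replicate 2 or H1R1 replicate 2 (adjusted p up to 0.178), and that at H1R18 without NC replicate 1 (0.0615). MYCL was called lower at H1R1 (-0.63, SE 0.23, adjusted p = 0.0462), but 12 of 18 alternatives did not call it, among them each fit that left out a library.

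Among 6 corepressor genes that MXD proteins and MNT use, 1 was lower at H1, and 3 were higher and 1 lower at H1R1, with list medians of 0.06 and 0.10. Of all genes 1.77% were lower at H1, and 10.7% were higher and 9.53% lower at H1R1. The gene that fell was SIN3A, the scaffold that binds MXD proteins directly, at 146.2 and 146.2 CPM at H1 and 109 and 109.5 CPM at H1R1, against 194 and 184 CPM in NC. Its log2 fold change was -0.37 at H1 (SE 0.09, adjusted p = 0.00883) and -0.79 at H1R1 (SE 0.09, adjusted p = 1.05e-07), and for H1R6 against H1R1 it was 0.92 (SE 0.09, adjusted p = 4.35e-09). The call at H1 was lost without NC replicate 1, H1 replicate 1 or H1 replicate 2 (adjusted p up to 0.12), and the other calls of SIN3A held. The 3 higher genes at H1R1 were the deacetylases HDAC1 (0.24) and HDAC2 (0.24) and the SIN3 complex subunit SAP30 (0.72), with adjusted p of 0.0171 to 0.0269. Each of the 3 calls was lost in 3 to 5 alternatives, HDAC1 without NC replicate 2 or H1R1 replicate 2, HDAC2 without NC replicate 1 or H1R1 replicate 1, and SAP30 without NC replicate 1 or either H1R1 library (adjusted p up to 0.216).

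Of 8 tested partners of MGA in its Polycomb-type complex, RYBP alone passed the test at H1 and at H1R1, and the list median was -0.01 at H1, 0.04 at H1R1 and -0.45 at H1R18. RYBP, an adaptor that joins RING1 proteins to DNA-binding factors, was at 129 and 120.5 CPM at H1 and 187 and 181 CPM at H1R1, against 78.7 and 73.6 CPM in NC. Its log2 fold change was 0.71 at H1 (SE 0.10, adjusted p = 5.77e-06) and 1.27 at H1R1 (SE 0.09, adjusted p = 8.92e-12), in each alternative. At H1, H1R1 and H1R18, 3.43%, 10.7% and 4.58% of all genes were higher and 1.77%, 9.53% and 6.43% lower. At H1R18, 3 partners were lower, the HP1 protein gene CBX3 (-0.42), the E2F partner TFDP1 (-0.59) and L3MBTL2 (-0.64), with adjusted p of 0.00231 to 0.0172, and the calls of TFDP1 (adjusted p = 0.0647) and L3MBTL2 (0.156) were lost without NC replicate 1. RING1 had a count of 0 in every library and was not tested. Reads on several genes or places were left out of the counts, and whether this removed reads of RING1 was not tested.

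Of 8 MYC cofactors, 2 were higher at H1R1, where 10.7% of all genes were and the list median was 0.03. They were HCFC1 (log2 fold change 0.29, SE 0.07, adjusted p = 0.00517), a MYC-binding host cell factor, and ZBTB17 (0.56, SE 0.16, adjusted p = 0.012), which encodes MIZ1, through which MYC represses. HCFC1 was lost without NC replicate 2 or H1R1 replicate 1 (adjusted p up to 0.137), and ZBTB17 without either NC library or H1R1 replicate 1 (up to 0.0974).

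Of 10 genes that control the stability of MYC protein, 4 were higher (GSK3B, USP36, FBXW7 and CIP2A) and 2 lower (USP28 and PIM1) at H1R1, against 10.7% and 9.53% of all genes and with a list median of 0.17, and are named here because the counts are small. Of these 6 calls that of GSK3B alone held in each alternative, and each of the others was lost without H1R1 replicate 1 and without 1 NC library. GSK3B, the kinase that marks MYC for degradation, was at 174 and 178 CPM at H1 and 183 and 174 CPM at H1R1, against 139.5 and 125.5 CPM in NC. Its log2 fold change was 0.41 at H1 (SE 0.09, adjusted p = 0.00338) and 0.43 at H1R1 (SE 0.09, adjusted p = 0.000593), the first lost without NC replicate 2 or H1 replicate 2 (adjusted p up to 0.052). At H1R18 USP36, a nucleolar deubiquitinase that stabilises MYC, was higher (0.58, SE 0.13, adjusted p = 0.00199), and SKP2, a ubiquitin ligase subunit that acts on MYC, was lower (-0.52, SE 0.12, adjusted p = 0.00297), both in each alternative. None could leave out the single H1R18 library.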

How the data were processed

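RNA-seq of HEK293T cells was analysed from 9 libraries, grouped by the sample labels. The authors deposited 1 whole-number count per gene and library, made with featureCounts 2.0.2 on Ensembl 104 (GRCh38), counting each read of a pair, without strand, and leaving out reads on several genes or places. Their notes also name FastQC 0.11.8, cutadapt 4.1, HISAT2 2.2.1 and DESeq2 1.38.3, whose design and settings are not given in the sources used here. Libraries held 3814195 to 6221613 counts, and 99.67% of identifiers had a symbol.

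Calculations used R 4.3.3, edgeR 4.0.16, DESeq2 1.42.0, Python 3.11.15, pandas 2.3.3, numpy 2.4.6 and matplotlib 3.10.9. The filter filterByExpr (minimum count 10, total 15) left 21139 genes, which were fitted by edgeR's quasi-likelihood model with TMM factors and 1 coefficient per condition (common biological coefficient of variation 0.0905). The quasi-likelihood fit had 26 prior degrees of freedom, so the spread used for each gene was drawn largely from that of all genes. Tests were two-sided, with Benjamini-Hochberg adjustment over all genes tested. SEs were obtained as the absolute log2 fold change over the root of the F statistic. With counts halved to read pairs, replicates of a condition differed by more than counting error (chi-square per degree of freedom 1.71 to 2.35), so none was taken as a duplicate.

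The network genes and lists were chosen with earlier results of these data known. The text names every network gene, of each list up to 4 genes with the smallest adjusted p against NC among those called, the 5 genes most like in course to MYC and to any network gene whose condition means span over 1 on the log2 scale, and overlapping genes. Some genes that this rule selects are not reported here. As alternatives, scaling was by RLE, by upper quartiles or by library size, the test was DESeq2, the filter was dropped or raised to 10 counts per library throughout, the fit was restricted to the conditions compared or made without H1R18, a replicate block was added, counts were halved to read pairs, and each of 8 libraries was left out in turn.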

Additional observations from a re-analysis of the deposited data

Results flagged for a closer look

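The following differences between times were tested directly by edgeR's quasi-likelihood test, and each is also the difference between the effects of the 2 times against NC. MYC differed by 0.27 on the log2 scale between H1R1 and H1 (SE 0.09, adjusted p = 0.0444), by 1.19 between H1R6 and H1R1 (SE 0.09, adjusted p = 6.48e-12) and by -0.37 between H1R18 and H1R6 (SE 0.10, adjusted p = 0.0156). MXD1 differed by 0.96 between H1R1 and H1 (SE 0.20, adjusted p = 0.00175) and by -1.78 between H1R6 and H1R1 (SE 0.22, adjusted p = 4.13e-07). MNT differed by -0.52 between H1R1 and H1 (SE 0.14, adjusted p = 0.0139) and by 0.50 between H1R6 and H1R1 (SE 0.14, adjusted p = 0.0135). MXD3 differed by 0.70 between H1R6 and H1R1 (SE 0.20, adjusted p = 0.0142) and by 0.93 between H1R18 and H1R6 (SE 0.22, adjusted p = 0.00354). Between H1R18 and H1R6, MXD4 differed by 0.38 (SE 0.12, adjusted p = 0.0359) and MAX by -0.65 (SE 0.17, adjusted p = 0.00775). The libraries of the 2 times did not overlap for any of these 11 differences. These differences are listed because they passed the test, so the separation of their libraries adds no support. Of the 11, 4 held in every alternative, namely MYC and MXD1 between H1R6 and H1R1, and MAX and MXD3 between H1R18 and H1R6. For MAX and MXD3 no alternative could leave out the single H1R18 library.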

How the results depend on the processing

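Of 70 values (10 genes in 7 comparisons), the 49 at least as large as their SE were recomputed under 10 alternatives and without each of 8 libraries, where these applied. This gave 860 values, of which 797 kept their direction and their side of the threshold, 47 lost a call, 15 gained one and 1 changed sign. The last was MXD1 at H1R6 against NC, which was not called at 0.28 and ranged from -0.0005 to 0.74 when single libraries were left out (-0.0005 without NC replicate 2). No called value changed sign, and 9 of the 21 calls were kept in every alternative. The number of network genes called at H1R18 against NC, 2 in the report, was 1 under each of DESeq2, the dropped low-count filter and the replicate block. Without single libraries the number of network genes called was 1 to 2 at H1 against NC, 3 to 5 at H1R1 against NC, 0 to 2 at H1R18 against NC, 1 to 3 at H1R1 against H1, 2 to 5 at H1R6 against H1R1 and 2 to 5 at H1R18 against H1R6. With 0 called at H1R18 against NC (without NC replicate 1), the edgeR adjusted p was 0.061 for MXD3 and 0.0793 for MXI1. Deviations of libraries with the same replicate number correlated at -0.0012 to 0.0175 over 21139 genes, so no pairing by number was seen. Counting error in genes of low count can hide one, and the labels do not say whether the numbers mark shared cultures. The cause of the changes in calls was not tested. MYCN, with 2 to 18 counts, was limited by depth, and H1R18 by its single library. Calls at H1R18 need that library, so no alternative could leave it out for them.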
